A study of Mus musculus with 7 samples.

Results

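The transcripts described here come from 10 genes with which macrophages recognise and take up apoptotic cells. They are the receptor tyrosine kinases Mertk and Axl, their ligands Gas6 and Pros1, the bridging protein Mfge8, the integrin subunits Itgav, Itgb3 and Itgb5, the endocytic receptor Lrp1 and the phosphatidylserine receptor Timd4. They were chosen by role, with earlier results of these data known, and all 10 were found among the 23337 genes of the tables. RNA sequencing covered 7 libraries of mouse macrophages grown from bone marrow with M-CSF, the macrophage growth factor, at 25 ng/ml for 7 days. Their donors were male mice 6 to 8 weeks old. The groups were Tgm2 knockout with LPS (KO LPS, n = 2), LPS-treated wild type (WT LPS, n = 2), untreated knockout (KO M0, n = 1) and untreated wild type (WT M0, n = 2). LPS, a bacterial cell wall component, was given at 10 ng/ml for 6 hours. The labels do not say how the knockout allele was made, nor do they tie replicates to separate mice or dishes. The p-values therefore measure only the spread between these libraries, which may be technical. KO M0 has no replicate, and its spread is taken to be that of the other groups.

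A dying cell exposes the lipid phosphatidylserine on its surface. Gas6 and protein S, the product of Pros1, bind this lipid and at their other end bind receptors of the TAM family, named for Tyro3, Axl and Mertk. Mfge8 binds the same lipid and, through its RGD motif, integrins that pair the alpha v chain (Itgav) with the beta 3 (Itgb3) or beta 5 (Itgb5) chain. Timd4 binds phosphatidylserine itself, and Lrp1 binds calreticulin on the dying cell. Transglutaminase 2, the product of Tgm2, acts with Mfge8 and the beta 3 integrin in this uptake in mouse macrophages.

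Tgm2 itself stood at 19.4 and 19.2 TPM in KO LPS and at 50.7 TPM in KO M0, against 233 and 199 TPM in WT LPS and 433 and 368 TPM in WT M0. TPM are transcript levels scaled for length and to a common total, and they keep no depth, so the sequencing depth is unknown. Macrophage markers were high in every library, with a summed level of the 9 listed genes between 40560 and 55324 TPM, while the B cell genes Pax5 and Ebf1 were listed at 0 in all 7. Cd79b, the highest B cell marker, stood at 0.235 and 0.830 TPM in KO LPS, was listed at 0 in WT LPS, and stood at 1.91 TPM in KO M0 and at 1.29 and 1.10 TPM in WT M0. Both WT LPS libraries went against their label in sex-linked transcripts. Xist stood at 47.2 and 55.4 TPM there and at no more than 0.00535 TPM in the other 5 libraries. All 4 listed Y-linked genes were higher in KO LPS than in WT LPS. Eif2s3y, the highest of them, stood at 67.8 and 68.0 TPM in KO LPS and at 32.8 and 37.2 TPM in WT LPS. It stood at 78.3 TPM in KO M0 and at 66.1 and 68.1 TPM in WT M0. Both WT LPS libraries thus held Xist and Y-linked transcripts. These libraries enter directly into the comparisons with KO LPS and with WT M0. They also enter directly into the difference between the LPS responses of the genotypes. The part of their sex-linked difference in these results was not tested. The WT LPS libraries enter contrasts within untreated and within knockout cells through the shared estimate of the spread and the filter on low values. The median gene differed on the log2 scale by 0.0959 between KO M0 and WT M0 replicate 2, and by 0.221 between the WT M0 replicates.

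Gas6 had the largest change among the 8 tested uptake genes in every comparison except KO M0 vs WT M0. Its level was 113 and 117 TPM in KO LPS, 37.3 and 35.4 TPM in WT LPS, 638 TPM in KO M0, and 657 and 704 TPM in WT M0. Both KO LPS libraries stood above both WT LPS libraries, and all LPS libraries stood below all untreated ones. Untreated macrophages held Gas6 above 97.9% to 98.1% of the tested genes, KO LPS above 87.0% and 87.4%, and WT LPS above 68.5% and 66.2%. In KO LPS the mean was 3.17 times that in WT LPS (115 ± 3.02 against 36.3 ± 1.39 TPM, SD, n = 2 each). The log2 fold change on the TPM + 1 scale was 1.64 (SE 0.15, limma adjusted p 0.000159), which placed Gas6 at rank 28 of 11096 tested genes by p. In KO M0 vs WT M0 the difference did not pass, at -0.09 on the log2 scale (SE 0.18, limma adjusted p 1).

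Under LPS Gas6 fell in both genotypes, and its log2 fold change was -2.46 in knockout cells (SE 0.18, limma adjusted p 3.53e-06) and -4.19 in wild-type cells (SE 0.15, limma adjusted p 2.24e-08). The ratio of means was 0.180 for KO LPS over KO M0 and 0.0534 for WT LPS over WT M0. The difference between these responses was 1.73 (SE 0.23, limma adjusted p 0.00840), so the fall was smaller in knockout cells. That call was lost when low genes were kept (1.73, adjusted p 0.0561) and when WT M0 replicate 1 was left out (1.78, adjusted p 0.0707), with adjusted p from 0.00703 to 0.0707 over 11 alternatives. The KO LPS vs WT LPS call passed in all 15 alternatives run, with adjusted p from 0.000105 to 0.0189.

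**Figure D1:**
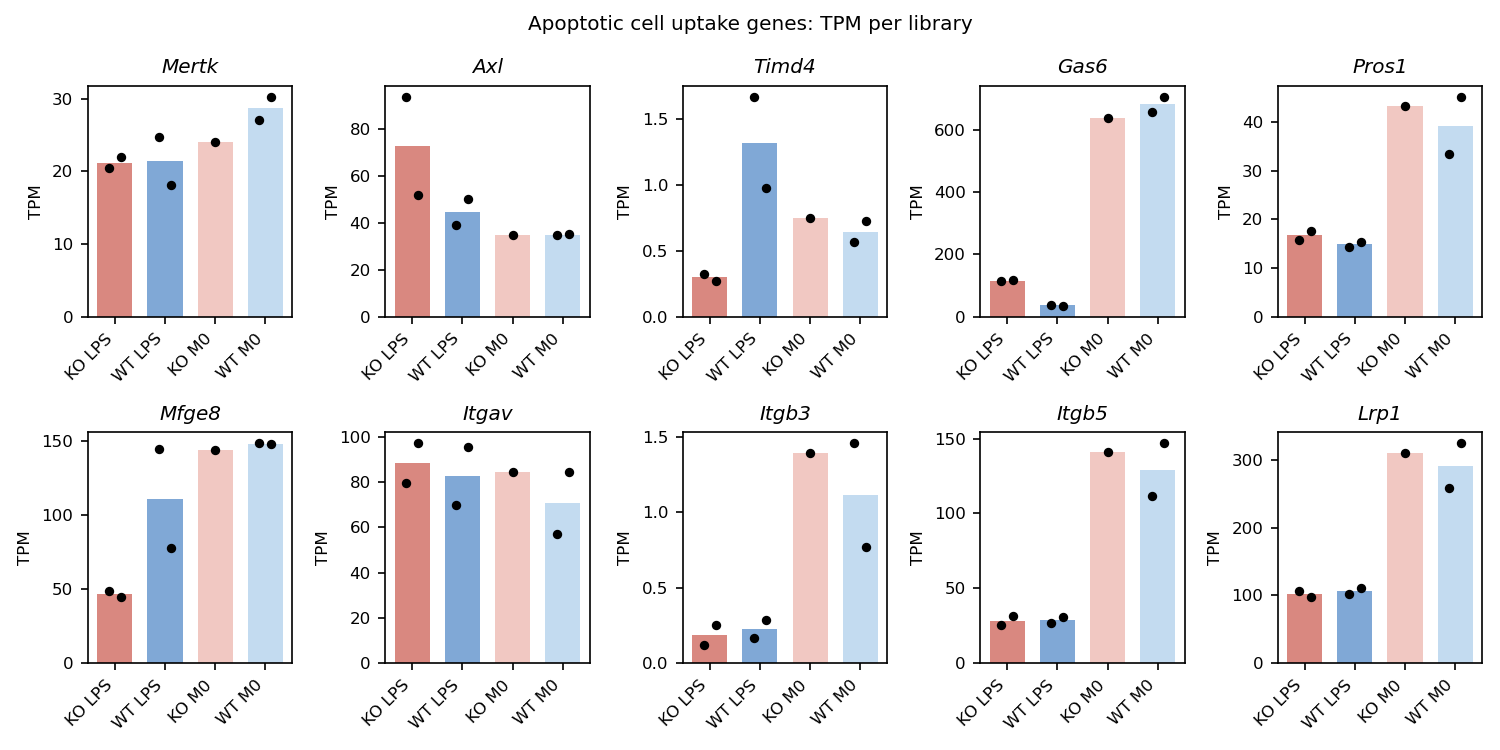
TPM of each of the 10 uptake genes by group, with bars for group means and points for single libraries (KO LPS, WT LPS and WT M0 n = 2, KO M0 n = 1). Gas6 stood at 113 and 117 TPM in KO LPS, above the 37.3 and 35.4 TPM of WT LPS, and Itgb5, Lrp1 and Pros1 were lower in all LPS libraries than in all untreated ones.

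Stromal cells also make Gas6, and the levels of their markers are given beside it. Of 14 listed stromal and endothelial markers 7 were tested. Of these 4 were called higher and 0 lower in KO LPS than in WT LPS, against 4.59% and 2.58% of all tested genes. They were Kdr, Col1a1, Pecam1 and Col1a2. Pecam1 passed the filter on low values only through KO LPS, at 2.12 and 2.30 TPM there and at most 0.846 TPM elsewhere. Col1a2 stood at 0.692 and 0.831 TPM in KO LPS and was listed at 0 in WT LPS, so it passed through the untreated libraries. The count thus depends in part on the filter, and nothing is read from it. These calls were not followed over the alternatives. The matrix gene Dcn did not pass (-0.76, limma adjusted p 0.330). All 14 together summed to 68.1 to 72.3 TPM in KO LPS, 33.2 to 36.3 TPM in WT LPS, 34.6 TPM in KO M0, and 40.0 to 53.2 TPM in WT M0. Kdr, an endothelial receptor, made up much of this in KO LPS, with 37.9 and 38.9 TPM in KO LPS, 12.7 and 7.30 TPM in WT LPS, 7.43 TPM in KO M0, and 4.98 and 5.15 TPM in WT M0. The collagen genes Col1a1, Col1a2 and Col3a1 together stood at 2.01 and 2.87 TPM in KO LPS, were listed at 0 in both WT LPS libraries, and stood at 18.8 TPM in KO M0 and at 25.5 and 34.5 TPM in WT M0. The sum of all 14 was highest in KO LPS, while Gas6 was highest in WT M0. Pdgfrb, a mural cell receptor, was 18.2 to 27.7 TPM in the LPS libraries and 1.81 to 2.29 TPM in the untreated ones. Its log2 fold change in KO LPS vs WT LPS was 0.25 and did not pass (limma adjusted p 0.607). The collagen sum had the same order of groups as Gas6, and Gas6 stood at 35.4 TPM or more where they were listed at 0. The part of stromal cells in the Gas6 difference was not tested, and in bulk RNA fewer cells of a type and less RNA per cell cannot be told apart.

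Pros1, the other TAM ligand, fell under LPS in both genotypes. It stood at 15.8 and 17.6 TPM in KO LPS, 14.4 and 15.4 TPM in WT LPS, 43.4 TPM in KO M0, and 33.4 and 45.2 TPM in WT M0. Every LPS library was below every untreated one, and the genotypes lay close together. The log2 fold change was -1.33 in KO LPS vs KO M0 (SE 0.24, limma adjusted p 0.00140) and -1.32 in WT LPS vs WT M0 (SE 0.19, limma adjusted p 0.000302). The difference of these responses was -0.0039, with a 95% interval from -0.68 to 0.67. Between KO LPS and WT LPS the log2 fold change was 0.15 (95% interval -0.27 to 0.58, limma adjusted p 0.740).

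Because TPM are per length, the ligands can be set beside each other within a library. Gas6 was 7.13 and 6.67 times Pros1 in KO LPS, 2.59 and 2.29 times in WT LPS, 14.7 times in KO M0, and 19.7 and 15.6 times in WT M0. Gas6 was the more abundant ligand transcript in all 7 libraries. Gas6 and Pros1 together were 1.13 and 1.82 times the summed TAM receptors in KO LPS, 0.809 and 0.742 times in WT LPS, 11.6 times in KO M0, and 11.2 and 11.4 times in WT M0. These ratios are descriptions of TPM and were not tested.

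The promoters of Gas6, Pros1, Lrp1 and Itgb5 are shown because these are the tested uptake genes that fell under LPS in both genotypes. The letters are the 250 bases before the start of transcription, 5′ to 3′ on the gene's strand, from RefSeq on GRCm38.p6, and capitals mark a match to the STAT motif TTCNNNGAA (GAS).
Gas6, chr8:13494536-13494785 (- strand): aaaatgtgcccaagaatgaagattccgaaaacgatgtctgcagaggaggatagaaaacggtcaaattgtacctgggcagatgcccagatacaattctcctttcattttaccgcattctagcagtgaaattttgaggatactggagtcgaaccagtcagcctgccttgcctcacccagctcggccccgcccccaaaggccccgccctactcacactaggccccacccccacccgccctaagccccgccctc
Pros1, chr16:62854057-62854306 (+ strand): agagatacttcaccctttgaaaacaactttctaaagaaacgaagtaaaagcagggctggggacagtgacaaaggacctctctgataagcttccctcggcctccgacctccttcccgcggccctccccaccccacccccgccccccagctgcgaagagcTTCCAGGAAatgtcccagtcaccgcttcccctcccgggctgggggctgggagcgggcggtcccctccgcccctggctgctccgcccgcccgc
Lrp1, chr10:127621149-127621398 (- strand): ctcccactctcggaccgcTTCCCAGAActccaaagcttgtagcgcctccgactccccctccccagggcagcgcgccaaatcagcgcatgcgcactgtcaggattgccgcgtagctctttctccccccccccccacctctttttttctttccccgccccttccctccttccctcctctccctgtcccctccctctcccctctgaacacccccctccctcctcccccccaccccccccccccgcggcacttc
Itgb5, chr16:33829415-33829664 (+ strand): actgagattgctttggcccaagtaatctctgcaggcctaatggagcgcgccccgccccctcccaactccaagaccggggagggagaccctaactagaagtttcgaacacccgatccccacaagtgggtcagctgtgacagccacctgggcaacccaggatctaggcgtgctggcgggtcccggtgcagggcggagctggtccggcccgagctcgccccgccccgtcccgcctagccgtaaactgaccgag
The table held a promoter for 9 of the 10 genes. For Pros1, Mfge8, Itgav, Itgb5 and Lrp1 the bases just after the RefSeq start were found in transcripts of the GENCODE annotation. For Gas6, Mertk, Axl and Timd4 they were not found, so the placing of these windows is less certain. Both strands were searched for GAS, for AP-1 (TGANTCA), for an interferon response motif, for kappaB and for the DR4 motif of the LXR receptors, with overlaps allowed. The only matches in the 9 windows were GAS in Pros1 at -92 and in Lrp1 at -232, counted from the start of transcription. Of all 32851 promoter windows 7.02% held GAS, 6.75% AP-1, 2.98% the interferon motif, 1.21% kappaB and 0.0152% DR4. A match is a description of letters and shows no binding.

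No difference of Mertk or Axl between KO LPS and WT LPS passed the test. Mertk, the receptor of resting macrophages, stood at 20.4 and 21.9 TPM in KO LPS, 24.7 and 18.2 TPM in WT LPS, 24.1 TPM in KO M0, and 27.1 and 30.2 TPM in WT M0. The KO LPS values lay between the WT LPS values, and the WT M0 libraries held the highest levels. Its log2 fold change was -0.0019 in KO LPS vs WT LPS (95% interval -0.43 to 0.43, limma adjusted p 0.999), -0.18 in KO LPS vs KO M0 (SE 0.24, limma adjusted p 0.581) and -0.42 in WT LPS vs WT M0 (SE 0.19, limma adjusted p 0.105). The knockout LPS value crossed 0 with median-ratio scaling (0.07) and quantile normalization (0.01), and none of these comparisons passed.

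Axl, the TAM receptor known to rise with inflammatory stimuli, stood at 93.7 and 52.1 TPM in KO LPS, 39.2 and 50.3 TPM in WT LPS, 34.8 TPM in KO M0, and 34.7 and 35.2 TPM in WT M0. Replicate 1 of KO LPS was far above replicate 2, which lay close to the higher WT LPS library. In knockout cells LPS raised Axl, by 0.99 on the log2 scale (SE 0.31, limma adjusted p 0.0282). In wild-type cells the change of 0.34 did not pass (SE 0.25, limma adjusted p 0.300), and the difference between the responses, 0.65, did not pass either (SE 0.40, limma adjusted p 0.651). The knockout call was lost without KO LPS replicate 1 (0.57, adjusted p 0.123), without either WT M0 library (adjusted p 0.0574 and 0.0576), with the compared groups alone (0.0825) and with no filter (0.124). KO LPS vs WT LPS gave 0.64 (SE 0.25, limma adjusted p 0.186) and passed without KO LPS replicate 2 (1.06, adjusted p 0.0289).

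Tyro3, the remaining TAM receptor, did not exceed 0.143 TPM in any library. Axl was 4.59 and 2.37 times Mertk in KO LPS, 1.59 and 2.77 times in WT LPS, 1.44 times in KO M0, and 1.28 and 1.16 times in WT M0. The ratio overlapped between the genotypes under LPS and was higher in each LPS library than in any untreated one. Profiles over the 7 libraries were compared with those of 8993 other genes, and predicted or unnamed gene models were then left out. Nearest to Mertk were Ifrd2, Xrcc3 and Pan2. Their centred log2 levels differed from it by a root mean square of 0.0782, 0.0787 and 0.0988. For Axl they were Nckap5l (0.121), Ebi3 (0.155) and Incenp (0.181).

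**Figure D2:**
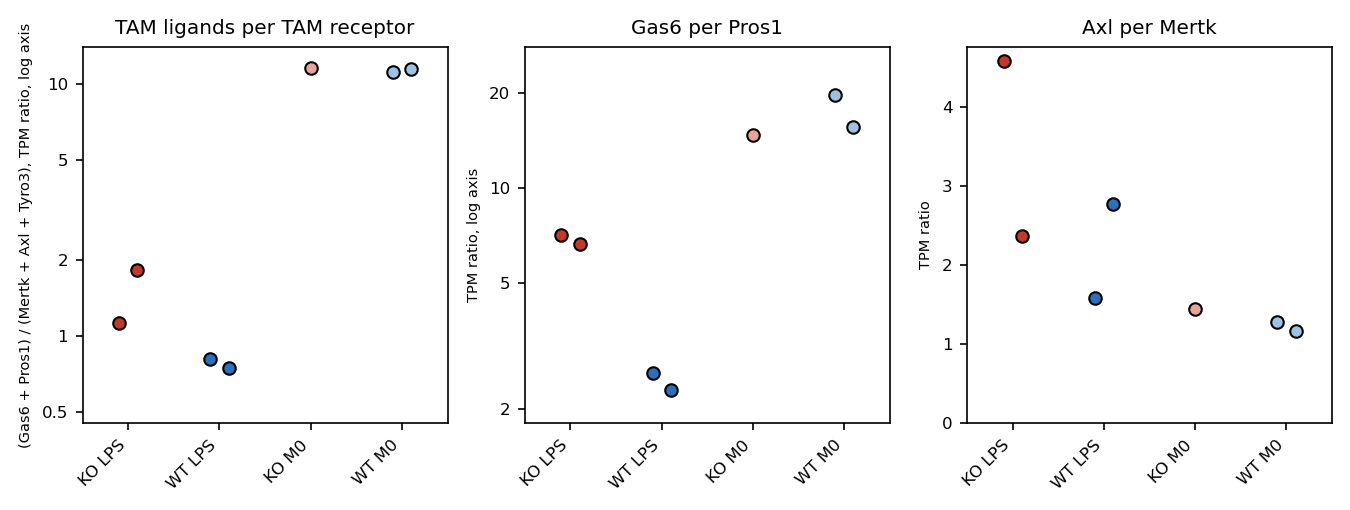
Ratios of TPM per library for TAM ligands over TAM receptors (log axis), Gas6 over Pros1 (log axis) and Axl over Mertk, with a point per library (KO LPS, WT LPS and WT M0 n = 2, KO M0 n = 1). The ligand ratio was 1.13 and 1.82 in KO LPS, 0.809 and 0.742 in WT LPS and 11.2 to 11.6 in the untreated libraries.

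Mfge8, the bridge to the alpha v integrins, was the 1 uptake gene called lower in KO LPS than in WT LPS. It stood at 48.6 and 44.3 TPM in KO LPS, 144 and 77.3 TPM in WT LPS, 144 TPM in KO M0, and 148 and 148 TPM in WT M0. The KO LPS libraries were below all others, while 1 WT LPS library stayed at the untreated level. The log2 fold change in KO LPS vs WT LPS was -1.17 (SE 0.25, limma adjusted p 0.0175), with a ratio of means of 0.420. The call was lost in 7 of 15 alternatives, with adjusted p from 0.00185 to 0.160. These were median-ratio scaling (0.0509), keeping low genes (0.160), the compared groups alone (0.0575), and leaving out KO LPS replicate 2 (0.0888), WT LPS replicate 1 (-0.72, adjusted p 0.0875) or either WT M0 library (0.0559 and 0.0560). In knockout cells Mfge8 fell under LPS, at -1.61 on the log2 scale (SE 0.30, limma adjusted p 0.00193). The wild-type change of -0.48 did not pass (SE 0.25, limma adjusted p 0.138) but did without WT LPS replicate 1 (-0.93, adjusted p 0.00766). The difference between the responses, -1.13, did not pass (SE 0.39, limma adjusted p 0.280) and passed only without WT LPS replicate 2 among the 11 alternatives (-1.58, adjusted p 0.0377).

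Among the integrin chains, no change of Itgav passed while Itgb5 fell under LPS. Itgav, the alpha chain, stood at 79.6 and 97.1 TPM in KO LPS, 69.8 and 95.5 TPM in WT LPS, 84.2 TPM in KO M0, and 57.1 and 84.6 TPM in WT M0. All 4 groups overlapped, and no comparison of Itgav passed. Its log2 fold change was 0.11 in KO LPS vs WT LPS, with a 95% interval from -0.39 to 0.60.

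Itgb5 stood at 25.2 and 31.4 TPM in KO LPS, 27.0 and 30.8 TPM in WT LPS, 141 TPM in KO M0, and 112 and 147 TPM in WT M0. The LPS libraries of both genotypes overlapped, and all lay below the untreated ones. The log2 fold change under LPS was -2.29 in knockout cells (SE 0.23, limma adjusted p 3.34e-05) and -2.11 in wild-type cells (SE 0.19, limma adjusted p 1.05e-05). The difference of responses was -0.17, with a 95% interval from -0.84 to 0.50. In TPM, Itgb5 was 0.316 and 0.324 times Itgav in KO LPS, 0.387 and 0.322 times in WT LPS, 1.67 times in KO M0, and 1.95 and 1.73 times in WT M0.

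Itgb3, the beta chain through which transglutaminase 2 acts in uptake, was low throughout. It stood at 0.122 and 0.255 TPM in KO LPS, 0.168 and 0.285 TPM in WT LPS, 1.39 TPM in KO M0, and 1.46 and 0.772 TPM in WT M0. Each LPS library was below each untreated one. With a mean of 0.636 TPM it did not pass the filter of a mean of at least 1 TPM and was not tested with the others. With no filter its log2 fold change was -1.01 in KO LPS vs KO M0 (limma adjusted p 0.0306) and -0.77 in WT LPS vs WT M0 (limma adjusted p 0.0318). At such levels the TPM + 1 scale understates a change.

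Lrp1 stood at 107 and 97.8 TPM in KO LPS, 103 and 110 TPM in WT LPS, 311 TPM in KO M0, and 258 and 324 TPM in WT M0. The genotypes overlapped under LPS, and all LPS libraries were below all untreated ones. The log2 fold change under LPS was -1.59 in knockout cells (SE 0.20, limma adjusted p 0.000145) and -1.43 in wild-type cells (SE 0.16, limma adjusted p 5.60e-05). Between KO LPS and WT LPS the log2 fold change was -0.06, with a 95% interval from -0.42 to 0.31.

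Timd4, a receptor of resident tissue macrophages, was low in every library. It stood at 0.323 and 0.271 TPM in KO LPS, 1.67 and 0.975 TPM in WT LPS, 0.750 TPM in KO M0, and 0.569 and 0.722 TPM in WT M0. The WT LPS libraries were the highest and the KO LPS libraries the lowest. Like Itgb3 it did not pass the filter. With no filter KO LPS vs WT LPS gave -0.82 (limma adjusted p 0.0975), which did not pass.

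Between KO LPS and WT LPS the limma test thus called 1 uptake gene higher and 1 lower of the 8 tested, against 7.16% of all tested genes called (4.59% higher, 2.58% lower). Their median log2 fold change was 0.05, against 0.03 over all tested genes. In KO M0 vs WT M0 it called 0 of 8 (0 also at an unadjusted p under 0.05), against 0.00901% of all genes, which is Tgm2 alone. In KO LPS vs KO M0, 1 rose and 5 fell, against 38.1% of all genes (13.8% higher, 24.3% lower). In WT LPS vs WT M0, 0 rose and 4 fell, against 44.6% (15% higher, 29.6% lower). The medians of the 8 were -1.46 and -0.90, and the medians over all genes -0.24 and -0.21. When the responses to LPS were compared between genotypes, 1 was called, Gas6, against 1.37% (0.847% higher, 0.523% lower). In KO LPS the order of levels was Gas6, Lrp1, Itgav, Axl, Mfge8, Itgb5, Mertk and Pros1, with Itgav and Axl overlapping. In WT LPS it was Mfge8, Lrp1, Itgav, Axl, Gas6, Itgb5, Mertk and Pros1, with Mfge8 overlapping both Lrp1 and Itgav. In WT M0 it was Gas6, Lrp1, Mfge8, Itgb5, Itgav, Pros1, Axl and Mertk, with Pros1 and Axl overlapping, and KO M0 had the same order. Itgb3 and Timd4 were the lowest of the 10 in every group.

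**Figure D3:**
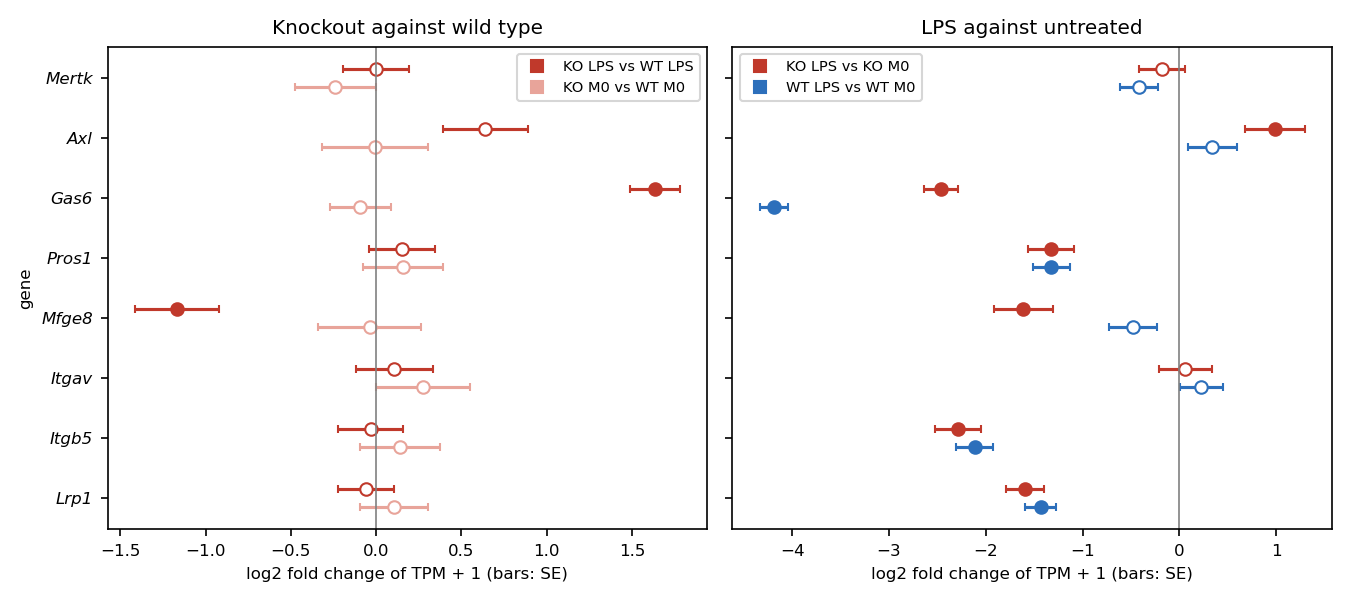
Log2 fold changes (TPM + 1) of the 8 tested uptake genes, with bars for the limma SE, filled points for calls at an adjusted p under 0.05 and open points for the rest. Gas6 (1.64) and Mfge8 (-1.17) were called in KO LPS vs WT LPS, and Gas6 stood at -2.46 in knockout and -4.19 in wild-type cells under LPS.

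All 10 are protein-coding genes on GRCm38.p6. Mertk (128698915 to 128803162) and Itgav (83722303 to 83806917) lie on chromosome 2, as does Tgm2 (158116405 to 158146392). Axl (25756500 to 25788924) and Mfge8 (79133768 to 79149060) lie on chromosome 7, and Gas6 (13465374 to 13494535) on chromosome 8. Lrp1 (127538157 to 127621148) is on chromosome 10, and Itgb3 (104608000 to 104670476) and Timd4 (46810786 to 46844333) on chromosome 11. Pros1 (62854307 to 62929346) and Itgb5 (33829665 to 33949338) lie on chromosome 16. The Gas6 interval overlaps that of the protein-coding Tmem255b (13435113 to 13493434). That gene was not listed under this name, and it was not analysed here. Those of Lrp1 and Itgav overlap non-coding RNAs or a pseudogene. Whether reads were assigned by strand is not given in the sources used here, so reads of overlapping genes cannot be told apart and these levels are uncertain.

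Several other receptors for apoptotic cells were lower in KO LPS than in WT LPS. Of 17 listed receptors 11 were tested, and 1 rose and 6 fell, with a median of -0.67, against 4.59% of all genes rising and 2.58% falling. Cd300lb, an activating phosphatidylserine receptor, stood at 16.6 and 18.2 TPM in KO LPS and at 52.9 and 60.8 TPM in WT LPS (log2 fold change -1.65, SE 0.17, limma adjusted p 0.000237). Havcr2 (Tim-3), which also binds phosphatidylserine, stood at 1.65 and 1.76 TPM in KO LPS and at 7.75 and 6.82 TPM in WT LPS (-1.61, SE 0.19, limma adjusted p 0.000554). The scavenger receptor Cd36 stood at 209 and 248 TPM in KO LPS and at 493 and 541 TPM in WT LPS (-1.18, SE 0.17, limma adjusted p 0.00179). None of the KO LPS values reached those of WT LPS for these genes. Scarb1, another scavenger receptor, fell by 1.03 (SE 0.17, limma adjusted p 0.00512). Olr1 and Cd300a also fell and Stab1 rose (0.56, limma adjusted p 0.0488), a call that Stab1 kept in 3 of 15 alternatives and Cd300a in 5. Without WT LPS replicate 2 the count of receptors called was 3, and it was 4 when low genes were kept, all lower. The LPS responses of Cd300lb and Havcr2 differed between the genotypes, by -1.65 and -1.84 (limma adjusted p 0.0167 for each). Cd300lb lost that call in 3 of 11 alternatives and Havcr2 in 4.

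Some markers of other cell types were also lower in KO LPS than in WT LPS, and others were not. The summed neutrophil markers, highest in S100a8 and at 0 for Retnlg and Cxcr2, stood at 106 to 161 TPM in KO LPS, 208 to 333 TPM in WT LPS, 5.01 TPM in KO M0, and 7.97 to 8.48 TPM in WT M0. S100a8 carried most of that sum, at 96.9 and 152 TPM in KO LPS and 196 and 321 TPM in WT LPS. Camp did not pass (-0.30, limma adjusted p 0.526), and S100a9 did not exceed 0.845 TPM. The megakaryocyte and erythroid markers, highest in Pf4 and at 0 for Hba-a1, summed to 303 to 374 TPM in KO LPS, 839 to 865 TPM in WT LPS, 502 TPM in KO M0, and 553 to 590 TPM in WT M0. Nearly all of this was Pf4, at 373 and 300 TPM in KO LPS and 836 and 861 TPM in WT LPS. The osteoclast markers summed to 165 to 186 TPM in KO LPS, 267 to 280 TPM in WT LPS, 196 TPM in KO M0, and 166 to 182 TPM in WT M0. In the LPS libraries Acp5 and Mmp9 carried most of that sum. Of 7 tested osteoclast markers 3 were called lower and 1 higher, which was Calcr (2.39, limma adjusted p 0.000301). Calcr stood at 7.22 and 10.2 TPM in KO LPS and at most 1.07 TPM elsewhere, so it passed the filter only through KO LPS. The dendritic cell markers summed to 11.02 to 12.5 TPM in KO LPS, 4.75 to 6.61 TPM in WT LPS, 5.48 TPM in KO M0, and 4.58 to 6.87 TPM in WT M0, with neither of the 2 tested called. Of 8 RNA quality and stress genes 0 were called higher and 1 lower, Fos (-1.34, limma adjusted p 0.00240). The part of these markers in the receptor changes was not tested.

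In the other lists between 0 and 2 genes passed, beside 7.16% of all tested genes (4.59% higher, 2.58% lower), and nothing particular to these lists is read from the counts. Of 12 tested bridging and opsonin genes 2 rose and 0 fell (median -0.16): the pattern-recognition opsonin Ptx3, at 91.4 and 102 TPM in KO LPS and 54.0 and 48.1 TPM in WT LPS (0.91, SE 0.18, limma adjusted p 0.0134), and complement C3 (0.63, SE 0.14, limma adjusted p 0.0244). Each lost its call in 4 of 15 alternatives. Thbs1 (-0.86, adjusted p 0.0874) and Anxa5 (-0.40, adjusted p 0.156) did not pass. Of 19 engulfment genes 1 rose, Dock2, an activator of Rac (0.71, SE 0.16, limma adjusted p 0.0253), and 0 fell (median -0.03). Src (-0.68), Abca7 (0.45) and Vav3 (-0.49) did not pass. The call for Dock2 was lost in 4 of 15 alternatives, which include leaving out either WT LPS library.

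Of 10 tested genes listed as uptake brakes 0 passed (median -0.07), with Cd47, the do-not-eat-me signal, at 0.42 (SE 0.20, limma adjusted p 0.270). Of 20 genes of phagosome maturation and digestion 0 rose and 1 fell (median -0.06). This was the lysosomal protease Ctsl, at 769 and 783 TPM in KO LPS and 1591 and 1452 TPM in WT LPS (-0.97, SE 0.15, limma adjusted p 0.00277). Of 15 upstream factors 0 rose and 1 fell (median -0.14). Among them Pparg (-1.07, adjusted p 0.0566), Stat3 (0.49, adjusted p 0.114) and Nr1h3, the LXR alpha receptor (-0.37, adjusted p 0.250), did not pass. Of 8 receptors for find-me signals 0 rose and 1 fell (median -0.19), S1pr1, which senses sphingosine 1-phosphate (-1.32, SE 0.21, limma adjusted p 0.00383). When low genes were kept, S1pr1 missed the threshold (adjusted p 0.0689).

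**Figure D4:**
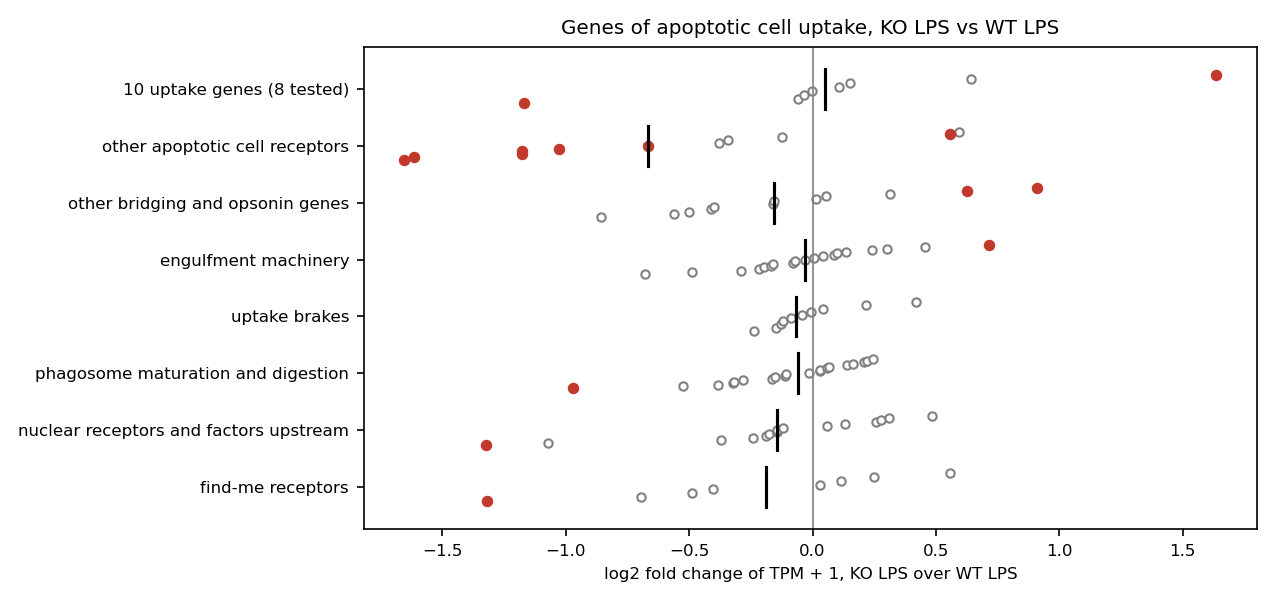
Log2 fold changes (TPM + 1) in KO LPS over WT LPS for each tested gene of the uptake set and of 7 wider lists, with filled points for calls at an adjusted p under 0.05, open points for the rest and a vertical line at each list's median. In the list of other apoptotic cell receptors 6 of 11 were called lower and 1 higher, while in the other 6 wider lists at most 2 genes were called.

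In WT LPS vs WT M0, 15% of all tested genes were called higher and 29.6% lower, and the counts of the lists stand beside those shares. Those of the engulfment and phagosome genes lie near them. Of 8 RNA quality and stress genes 1 rose and 6 fell (median -1.10), with Malat1 at -1.15 and Neat1 at -1.06. WT M0 replicate 1 held the most of both. Malat1 stood at 1263 TPM there, 733 TPM in replicate 2, 709 TPM in KO M0, and 432 and 438 TPM in WT LPS. Neat1 stood at 2386, 1468, 1284, and 991 and 815 TPM in the same order. The part of RNA quality in these changes was not tested. Of the 11 other receptors 2 rose and 6 fell (median -0.97), among them the inhibitory Cd300a (-3.16, SE 0.18, limma adjusted p 4.57e-07) and the clearance receptor Stab1 (-1.94, SE 0.15, limma adjusted p 3.16e-06). Of 12 bridging and opsonin genes 3 rose and 6 fell (median -0.41). Ptx3 rose by 4.73 (SE 0.18), and C1qc, a chain of complement C1q, fell by 2.21 (SE 0.17). Of 19 engulfment genes 4 rose and 6 fell (median 0.02), with Dock2 (-1.90) and Vav3 (-1.71) the smallest in p. Of 10 genes listed as uptake brakes 7 rose and 0 fell (median 0.58), led by Cd274, the checkpoint ligand PD-L1 (4.30, SE 0.16, limma adjusted p 2.78e-08). The second was Lilrb4a (0.92, limma adjusted p 0.000746), listed under its older name Lilrb4. Whether the genes of this list brake uptake by the macrophages that express them was not tested.

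Of 20 phagosome genes 4 rose and 7 fell (median -0.26), with the oxidase subunit Cybb up (1.73, SE 0.17) and the mitochondrial carrier Ucp2 down (-1.28, SE 0.16). Of 15 upstream factors 4 rose and 7 fell (median -0.55), with Pparg down (-3.90, SE 0.30). Of 8 find-me receptors 2 rose and 4 fell, with Gpr132 (-1.56) and S1pr1 (-1.66) down. All genes of these wider lists given with a fold change for this comparison kept their calls in every alternative run. Malat1 and Neat1 were not followed over the alternatives.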

How the data were processed

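The submitters sequenced RNA of 7 libraries, and the authors deposited TPM, 1 table for each library, for 23337 genes, each summing to 1000000. Per the submitters' processing notes, the genome build was mm10. No aligner, annotation or quantification tool is given in the sources used here. The file headers do not name the unit. The lowest values differ between genes, as length scaling gives.

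Groups were taken from the sample titles. The 10 genes, the gene lists, the rule for named genes and the alternatives were chosen with earlier results of these data known. That rule names all 10 genes, Tgm2, up to 4 genes of each wider list by p in KO LPS vs WT LPS and up to 2 in WT LPS vs WT M0, the highest member of each marker list and its members at 0, and the 3 nearest profiles to Mertk and Axl at a mean TPM of at least 5. Other named genes, such as the stromal markers, Calcr, Fos, Malat1 and Tyro3, were chosen after their values were seen. Tmem255b was named because its interval overlaps that of Gas6. Older names were matched through RefSeq. Some genes that the rule names are not reported here.

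The 11096 genes whose TPM averaged 1 or more were fitted as log2(TPM + 1) with limma 3.58.1 in R 4.3.3, group means over all 7 libraries and eBayes with a trend (residual degrees of freedom 3 and prior 7.3). Benjamini-Hochberg adjustment ran over all tested genes at 0.05, in 5 comparisons. TPM keep no depth, so no counting interval is given. Tested on simulated data, the fit let through more false calls than its nominal share in the 3 comparisons simulated, and it recovered small changes least often in KO M0 vs WT M0. Figures were drawn with matplotlib 3.10.9.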

Additional observations from a re-analysis of the deposited data

Results flagged for a closer look

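Gas6 was picked out because the test of the difference between its LPS responses passed. LPS changed it by a log2 fold change of -2.46 in knockout and -4.19 in wild-type cells, a difference of 1.73 (limma adjusted p 0.00840).

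Timd4 was picked out because its libraries moved in opposite directions. Both KO LPS libraries were below KO M0, and both WT LPS libraries were above both WT M0 libraries. It did not pass the filter on low values. With no filter the difference of responses was -0.91 and did not pass (limma adjusted p 0.323). Its values ran up to 1.67 TPM.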

How the results depend on the processing

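Most values of the 8 tested genes kept their direction and side of the threshold: 494 did, 14 lost a call, 3 gained one and 25 changed sign, all of these uncalled. Genes called in KO LPS vs WT LPS numbered 795, against 307 with low genes kept, 362 at an adjusted p of 0.01, and 399 to 800 when single libraries were left out. In KO M0 vs WT M0 it was 1, against 2 with a pseudocount of 0.1, 20 with low genes kept, 8 with the compared groups alone, and 1 to 3 leaving out libraries. KO LPS vs KO M0 gave 2681 at 0.01. The difference of responses gave 152, against 92 with the pseudocount of 0.1, 10 with low genes kept, 28 at 0.01, and 6 to 146 leaving out libraries. Uptake genes called in KO LPS vs WT LPS were 1 with median-ratio scaling, with low genes kept, at 0.01 and with the compared groups alone, and 1 to 2 leaving out libraries. For the difference of responses they were 0 with low genes kept and 0 to 2 leaving out libraries. Where a library was left out, the gene filter still used all 7, and a lone library was assumed to vary like the other groups. The causes were not tested.

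Median-ratio scaling moved the median of all genes to 0.01 in WT LPS vs WT M0 and to -0.01 in KO LPS vs KO M0. Mertk in KO LPS vs KO M0 was then 0.0653, and 0.0107 with quantile normalization. The Pros1 difference of responses was 0.0132 with median-ratio scaling, 0.00094 with the pseudocount of 0.1 and -0.22 to 0.21 leaving out libraries. Leaving out libraries gave in KO LPS vs WT LPS -0.21 to 0.21 for Mertk, -0.12 to 0.33 for Itgav, -0.19 to 0.12 for Itgb5 and -0.12 to 0.0050 for Lrp1. In KO M0 vs WT M0 it gave -0.0165 to 0.0021 for Axl, -0.0563 to 0.37 for Pros1, -0.0067 to 0.55 for Itgav, -0.0565 to 0.34 for Itgb5 and -0.0604 to 0.27 for Lrp1. Itgav ran from -0.0514 to 0.51 in WT LPS vs WT M0, from -0.0800 to 0.20 in KO LPS vs KO M0 and from -0.45 to 0.11 in the difference of responses. That difference ran from -0.37 to 0.0231 for Itgb5 and from -0.32 to 0.0029 for Lrp1.

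With the replicate block on the 6 numbered libraries, 1109 genes were called in KO LPS vs WT LPS and 5664 in WT LPS vs WT M0, with 2 and 4 uptake genes, and 800 and 4948 genes without the block. Deviations of same-numbered libraries correlated at 0.18, 0.08 and 0.30. The main fit had no block because nothing in the labels says that a number marks a shared animal or day. TPM hold no depth, so what depth limits could not be shown, and genes under 1 TPM such as Itgb3 and Timd4 are least certain.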
